A study of Mus musculus with 6 samples.

Results

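Antigen presentation by major histocompatibility complex (MHC) class I was followed through 10 genes in Lewis lung carcinoma (LLC) cells, a lung cancer line of the C57BL mouse. The genes were the heavy chains H2-K1 and H2-D1, the light chain B2m, the peptide transporter genes Tap1 and Tap2, tapasin (Tapbp), the immunoproteasome subunits Psmb8, Psmb9 and Psmb10, and the regulator Nlrc5. They were picked by symbol, and each matched 1 gene among the 18182 genes of the files. The LLC cells carried red fluorescent protein (LLC-RFP) and grew under the skin of wild type C57BL/6 mice. In 1 group they were injected alone (LLC alone, 3 libraries), and in the other together with bone marrow-derived mesenchymal stem cells (BMSCs) bought from a supplier of C57BL/6 cells (LLC with BMSCs, 3 libraries). Cells positive for red fluorescent protein were sorted from the primary tumours once these had reached a set size, so that the day of sorting may have differed between the groups, and their mRNA was sequenced. The study asked how BMSCs change the transcriptome of the cancer cells beside them. By the study's methods the mice of its allografts were female and 6 weeks old. The labels give no day of sorting, no construct or promoter for the fluorescent protein, and nothing that says whether each library came from its own mouse. The p-values therefore measure the spread between these libraries, which may be technical. Each library held between 33476347 and 46189113 estimated fragments on genes. In both groups 1 library stood apart from the others. A chi-square test of counts gave 4.79 per degree of freedom between LLC alone replicates 1 and 2 but 58.5 and 60.4 between these and replicate 3, and 3.03 between LLC with BMSCs replicates 2 and 3 but 19.1 and 19.6 between these and replicate 1. The close libraries still differed by more than sampling noise and were counted separately.

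MHC class I molecules show peptides from inside the cell to CD8 T cells and are read by natural killer cells. The proteasome cuts proteins into peptides, the transporter formed by Tap1 and Tap2 carries them into the endoplasmic reticulum, and tapasin holds an empty heavy chain and B2m beside the transporter until a peptide is bound. Interferons are known to raise the whole set of genes, to exchange the constitutive proteasome subunits for Psmb8, Psmb9 and Psmb10, and to act through factors such as Irf1 and Nlrc5.

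All 10 genes were higher in LLC with BMSCs, by a fold change of 1.44 (H2-D1) to 9.45 (Psmb9), in edgeR's quasi-likelihood test at an adjusted p of 0.05. Among the 13353 tested genes of the transcriptome 31.5% were called higher and 31.3% lower, or 62.9% in all, so that a call by itself is common here. A log2 fold change of at least 1 with a call was rarer, at 8.65% of the tested genes, and 7 of the 10 genes reached it. The median log2 fold change of the 10 genes was 1.61, beside 0.012 for all tested genes. The 10 genes were chosen with earlier results of these data known, so their distance from all tested genes is description only. In every one of the 10 genes the lowest LLC with BMSCs library lay above the highest LLC alone library in FPKM (fragments scaled to transcript length and library size, the unit used here for levels), as it did in 37.0% of the tested genes. With 3 against 3 libraries, an exact permutation test of FPKM cannot go below a two-sided p of 0.1, and each of the 10 genes reached that value. All 10 kept their call in edgeR without LLC alone replicate 3, without LLC with BMSCs replicate 1, and with the close libraries of each group summed into 1, where the highest adjusted p was 0.0320 (B2m).

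Most of the genes lie together. On the GRCm38 build, 7 of the 10 are on chromosome 17, within the mouse MHC or beside it, and Psmb9, Tap1, Psmb8 and Tap2 fill a stretch of 34335 bases at chr17:34181987-34216321. B2m is at chr2:122147686-122153083, Psmb10 at chr8:105935735-105938444 and Nlrc5 at chr8:94434356-94527272. These positions are those of the GENCODE annotation, since the files hold none.

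Upstream sequence is shown for H2-K1, H2-D1, Tap1 and Psmb9 as examples of windows with matches to motifs of factors known to act on class I promoters. Not every window of the 10 genes is described, so that a match given for these genes is not thereby absent from the rest. RefSeq promoter windows of GRCm38 (250 bases before to 50 after a start) were matched by symbol, with 2 for H2-K1, and Tap2 and Nlrc5 had no entry. Letters in capitals match a kappaB motif, a loose form of the interferon-stimulated response element (ISRE), which is GAA followed after 2 free bases by GAAA, the TGACG core of the cyclic AMP response element, or a CCAAT box. The kappaB motif searched begins with GGG and ends with CC, with 5 bases between of which the fourth is T. All were searched on both strands, so that a CCAAT box on the other strand reads ATTGG, and the loose ISRE was added after the windows had been read. Adjoining or overlapping matches run together in the capitals.
H2-K1, chr17:34000348-34000468, - strand: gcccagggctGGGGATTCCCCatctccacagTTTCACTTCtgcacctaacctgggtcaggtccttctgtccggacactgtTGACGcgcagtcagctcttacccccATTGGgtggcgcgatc
H2-D1, chr17:35262924-35262953, + strand: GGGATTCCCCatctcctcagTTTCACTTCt
H2-D1, chr17:35262993-35263022, + strand: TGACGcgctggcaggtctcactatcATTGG
Tap1 and Psmb9, chr17:34187464-34187493, + strand: gacaggTGACGacagaGGGTCCTGCCctca

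H2-K1 and H2-D1 had the same arrangement in these windows. A kappaB match came first and the loose ISRE second. Further down TGACG was followed by ATTGG, with the starts of these motifs exactly 25 bases apart. That spacing was found in 31 of the 32851 promoter windows of the table (0.0944%), those of H2-K1 and H2-D1 included. It was looked for after the windows had been read. Among single motifs, the full ISRE (GAAA repeated after 2 free bases) was in 3.44% of all windows, and not in those of H2-K1, H2-D1, Tap1 or Psmb9. The loose ISRE was in 7.52%, kappaB in 17.4%, TGACG in 20.8% and CCAAT in 37.4%. The GAS motif, which is TTC and GAA with 3 free bases between and is bound by STAT dimers, was in 8.3% of all windows and in that of Psmb8. The piece shown for Tap1 and Psmb9 lies between their RefSeq starts, which face away from each other, so that the same TGACG and the same 2 kappaB matches, of which 1 is shown, stand upstream of both. The window of Psmb10 held none of these motifs, and that of Tapbp only CCAAT boxes. A match is only a run of letters, and no binding was measured here.

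**Figure D1:**
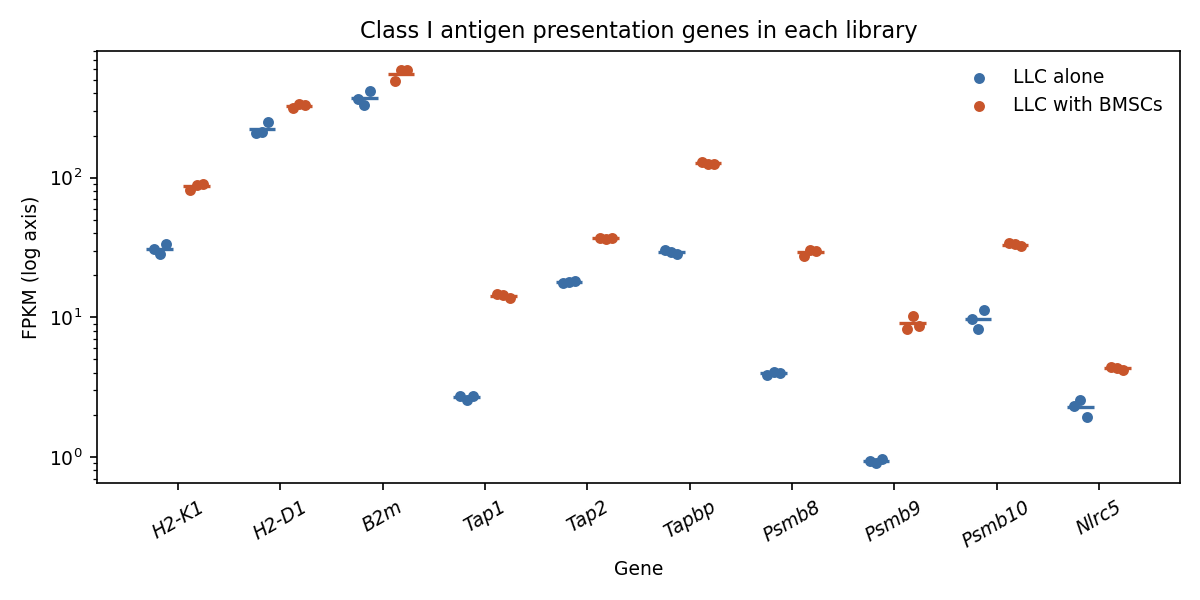
FPKM (log axis) of each of the 10 class I antigen presentation genes, with 1 point per library (3 LLC alone, 3 LLC with BMSCs) and a line at each group's mean. The points of the 2 groups do not overlap for any gene, from Psmb9 (0.90 to 0.97 against 8.30 to 10.3) to B2m (329.5 to 419.6 against 494 to 585).

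The molecules that show the peptide rose least, apart from H2-K1. B2m, the light chain shared by all class I molecules, was the most abundant of the 10 genes, at 366, 329.5 and 419.6 FPKM in LLC alone (replicates 1 to 3, the order kept throughout) and at 494, 585 and 585 in LLC with BMSCs. The highest LLC alone library stayed below the lowest LLC with BMSCs library, but by less than the groups' own ranges. The log2 fold change of B2m was 0.56 (SE 0.11, edgeR adjusted p = 0.00247). H2-D1, the heavy chain of the D locus, stood at 209.5, 212 and 251 FPKM in LLC alone and at 315, 335 and 330.3 in LLC with BMSCs. Its rise was of the same size as that of B2m, with a log2 fold change of 0.52 (SE 0.08, edgeR adjusted p = 0.000939). H2-K1, the heavy chain of the K locus, stood at 30.6, 28.5 and 33.5 FPKM in LLC alone and at 81.0, 89.2 and 90.3 in LLC with BMSCs. It rose further than the other heavy chain, by a log2 fold change of 1.47 (SE 0.08, edgeR adjusted p = 4.80e-06).

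The uneven rise brought the heavy chains closer to each other. H2-K1 FPKM was 14.6%, 13.4% and 13.4% of H2-D1 FPKM in the LLC alone libraries and 25.7%, 26.6% and 27.3% in the LLC with BMSCs libraries. The groups did not overlap, and the log2 ratio differed by 0.95 (two-sided exact permutation p = 0.1). This ratio was added after the values were seen. Measured against B2m, H2-K1 and H2-D1 together made up 65.6%, 73.0% and 67.7% in LLC alone and 80.1%, 72.5% and 71.9% in LLC with BMSCs. These ratios overlapped between the groups, with a difference of 0.12 on the log2 scale against SDs of 0.08 and 0.09 within the groups (two-sided exact permutation p = 0.3).

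Division of reads between near-identical genes limits the heavy chain values. The coding sequences of H2-K1 and H2-D1 in GENCODE were 91.5% identical outside gaps. No window of 100 bases (the read length) in the H2-K1 transcript recurred exactly in a transcript of another gene, while 4.64% of the H2-D1 windows recurred in 9 other genes. The estimated count of H2-K1 was not whole in 4 of the 6 libraries and that of H2-D1 in all 6, so some reads had been divided. With the counts of H2-K1 and H2-D1 summed before the test, the log2 fold change was 0.67 (SE 0.08, edgeR adjusted p = 0.000253). With all 15 H2-K, H2-D, H2-Q and H2-T genes listed it was 0.77 (SE 0.08, edgeR adjusted p = 0.000102).

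The genes that load the peptide rose more than the heavy chains together. Tap1, one chain of the peptide transporter, went from 2.75, 2.56 and 2.71 FPKM in LLC alone to 14.6, 14.4 and 13.8 in LLC with BMSCs. The groups lay far apart beside their spread, with a log2 fold change of 2.39 (SE 0.06, edgeR adjusted p = 1.87e-07). Tap2, the other chain, went from 17.6, 17.9 and 18.3 FPKM to 37.0, 36.6 and 37.1, with a log2 fold change of 1.02 (SE 0.05, edgeR adjusted p = 4.19e-06). Its libraries were the most alike of the 10 genes, with a coefficient of variation of 1.97% in LLC alone and 0.754% in LLC with BMSCs. Tapbp (tapasin), which tethers class I molecules to the transporter, went from 30.1, 29.2 and 28.3 FPKM to 129, 126 and 124. Its log2 fold change was 1.99 (SE 0.06, edgeR adjusted p = 2.43e-07). In LLC alone Tapbp and H2-K1 were at the same level within their spread, and in LLC with BMSCs every Tapbp value lay above every H2-K1 value.

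The transporter is built from 1 chain of each kind, and the mRNAs of the chains were not equal. Tap1 FPKM was 15.6%, 14.3% and 14.8% of Tap2 FPKM in LLC alone, and 39.6%, 39.3% and 37.2% in LLC with BMSCs. The shift of 1.38 in the log2 ratio was many times the SDs of 0.06 and 0.05 within the groups (two-sided exact permutation p = 0.1).

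Of the immunoproteasome subunits, Psmb9 and Psmb8 rose most of the 10 genes, while Psmb10 came after Tap1 and Tapbp. Psmb9, which takes the place of Psmb6, was the lowest of the 10 genes in LLC alone, at 0.94, 0.90 and 0.97 FPKM, and reached 8.30, 10.3 and 8.60 in LLC with BMSCs. Its log2 fold change of 3.24 (SE 0.14, edgeR adjusted p = 1.45e-06) was the highest of the 10. Psmb8, which takes the place of Psmb5, went from 3.87, 4.05 and 3.97 FPKM to 27.7, 30.4 and 29.9, with a log2 fold change of 2.87 (SE 0.07, edgeR adjusted p = 1.12e-07). Psmb10, which takes the place of Psmb7, went from 9.68, 8.25 and 11.2 FPKM to 33.8, 33.4 and 32.1. It rose by a log2 fold change of 1.74 (SE 0.11, edgeR adjusted p = 8.15e-06), less than the other immunoproteasome subunits, from a higher level. Tap1 and Psmb9 lie on opposite strands, and their GENCODE spans overlap by 212 bases. In GENCODE 3.96% of the 100-base windows of Tap1 and 9.02% of those of Psmb9 were shared. The files list Psmb9 with 1 transcript of 806 bases, shorter than the 1352 bases of GENCODE, so the overlap may not have been counted. The estimated count of Psmb9 was whole in every library, and that of Tap1 was not whole in 1. The strand setting of the counting is not given in the sources used here.

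Of the constitutive partners 1 fell and the others were not called. Psmb5 fell from 159, 174 and 206 FPKM in LLC alone to 100.4, 122 and 113 in LLC with BMSCs, with a log2 fold change of -0.71 (SE 0.11, edgeR adjusted p = 0.000925). Once the trend over transcript length was removed, Psmb5 kept its call with a smaller log2 fold change of -0.38. Psmb6 was not called, at 123, 120.4 and 162 FPKM against 111, 118 and 113 (edgeR log2 fold change -0.27, SE 0.12, adjusted p = 0.0800), and was called lower without LLC alone replicate 2 (-0.35, edgeR adjusted p = 0.0421). Psmb7 was not called either, at 244, 241 and 291 FPKM against 222, 265 and 258 (edgeR log2 fold change -0.08, SE 0.10, adjusted p = 0.486), although it was called higher once the trend over transcript length was removed (edgeR log2 fold change 0.22, adjusted p = 0.00204).

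Within a library, each induced subunit became a larger share of its constitutive partner. Psmb8 stood at 2.23% ± 0.27 (SD, n = 3) of Psmb5 in LLC alone and at 26.3% ± 1.3 in LLC with BMSCs. Psmb9 stood at 0.703% ± 0.092 of Psmb6 and then at 7.92% ± 0.70. Psmb10 stood at 3.74% ± 0.28 of Psmb7 and then at 13.4% ± 1.6. No pair overlapped between the groups, and the ratios were 11.9, 11.3 and 3.58 times as high with BMSCs (two-sided exact permutation p = 0.1 in all 3). Even there the constitutive mRNAs stayed the more abundant, since each ratio was below 28%. A ratio within a library does not depend on how the libraries were scaled.

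**Figure D2:**
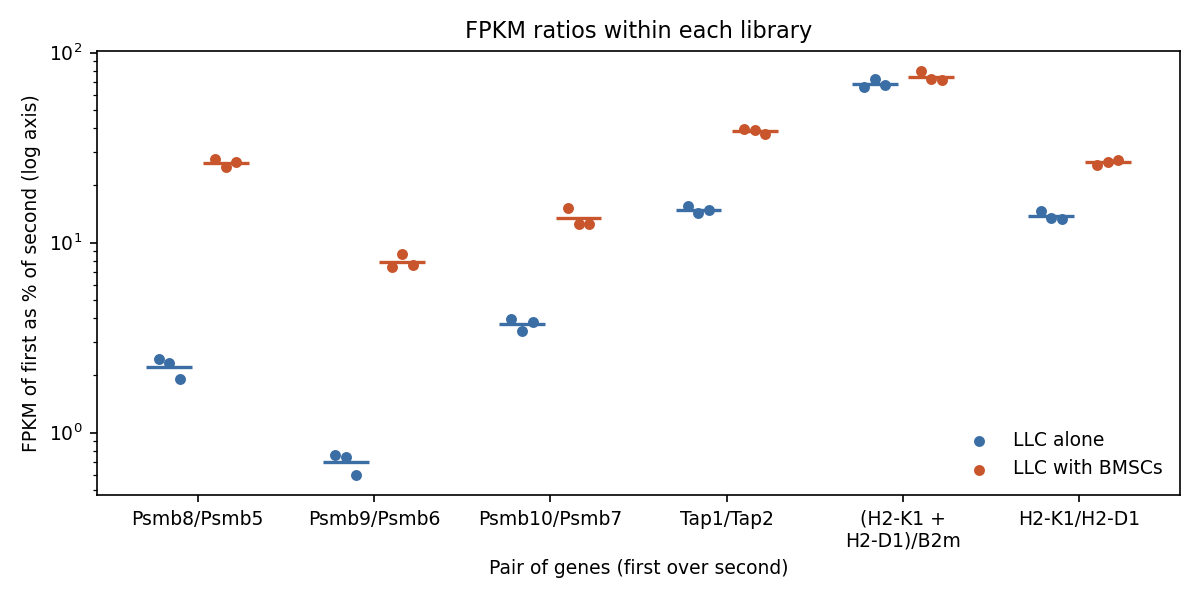
FPKM of the first gene as a percentage of the second (log axis) in each library, for each induced proteasome subunit over its constitutive partner, Tap1 over Tap2, the heavy chains H2-K1 and H2-D1 over B2m, and H2-K1 over H2-D1. Points are the 3 LLC alone and 3 LLC with BMSCs libraries with lines at the group means. Only the heavy chains over B2m overlap between the groups, at 65.6% to 73.0% against 71.9% to 80.1%.

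Nlrc5, the transactivator that switches on class I genes, was the least abundant of the 10 in LLC with BMSCs. It went from 2.31, 2.54 and 1.94 FPKM in LLC alone to 4.40, 4.33 and 4.17. All LLC with BMSCs libraries were above all LLC alone libraries, with a log2 fold change of 0.97 (SE 0.10, edgeR adjusted p = 0.000121). The estimated count of Nlrc5 was not whole in any of the 6 libraries, although none of its 100-base windows recurred in another gene. Nlrc5 is the longest of the 10 transcripts, and LLC alone replicate 3, its lowest library, was low in long transcripts as a whole. Among the 20% of genes with the longest transcripts its median log2 deviation from the mean of all libraries was -0.37, and among the 20% with the shortest it was 0.31. The trend also followed the group. In LLC with BMSCs the longest stood at 0.18, 0.10 and 0.13 and the shortest at -0.19, -0.09 and -0.11. In LLC alone replicates 1 and 2 the longest stood at -0.02 and -0.003 and the shortest at 0.06 and 0.04. With each library's trend over length removed, the log2 fold change of Nlrc5 was 0.68 and that of B2m, a short transcript, was 0.89 (edgeR in both cases, and both called).

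By log2 fold change it ran Psmb9, Psmb8, Tap1, Tapbp, Psmb10, H2-K1, Tap2, Nlrc5, B2m and H2-D1. Neighbours in this order differed by more than 2 SEs of their difference, except Tap2 and Nlrc5 and, at the bottom, B2m and H2-D1. By FPKM the order from B2m and H2-D1 down to Tap2, Psmb10, Psmb8 and Tap1 was alike in both groups. Between them Tapbp passed H2-K1, and Psmb9 passed Nlrc5 at the bottom. In absolute terms the order was another one, since B2m gained 183 FPKM and H2-D1 gained 103, while Tapbp gained 97.1, H2-K1 gained 56.0 and Psmb9 gained 8.12.

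**Figure D3:**
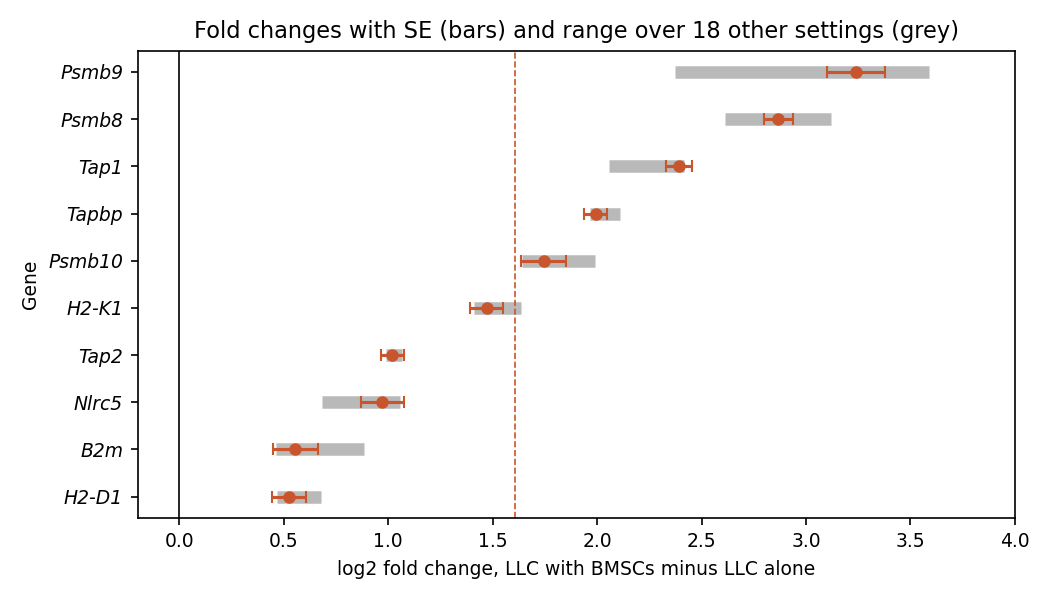
Log2 fold change of each gene, LLC with BMSCs minus LLC alone, from edgeR (points, with SE as bars), and the lowest to highest value over 18 other settings of the analysis (grey). The dashed line marks the median of the 10 genes, 1.61. Every grey range lies above 0, and the widest is that of Psmb9, from 2.37 to 3.59.

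The files split 3 of the genes among several transcripts. For Tap1, transcript NM_013683 held 92.8% ± 3.5 (SD, n = 3) of the FPKM in LLC alone and 91.8% ± 2.5 in LLC with BMSCs, with overlapping groups (two-sided exact permutation p = 0.5). For Tapbp, NM_009318 held 55.5% ± 3.7 and 55.7% ± 0.8 (two-sided exact permutation p = 1), and NM_001025313 held 34.6% ± 2.8 and 41.3% ± 1.5 (exact permutation p = 0.1). The rest of Tapbp lay in 4 transcripts assembled by the authors. For Nlrc5, the RefSeq transcript NM_001033207 held 45.2% ± 19.5 and 30.7% ± 8.8 (two-sided exact permutation p = 0.6), with overlapping groups. Among its 4 assembled transcripts, 1 went from 12.6%, 6.67% and 11.3% to 19.5%, 20.6% and 25.6%, and 1 from 18.2%, 42.4% and 14.4% to 3.64%, 6.71% and 0% (exact permutation p = 0.1 for both), and the others overlapped.

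Of 52 tested genes in 6 other lists of antigen presentation genes, edgeR called 26 higher (50%) and 13 lower (25%), beside 31.5% and 31.3% of all tested genes, or 24 and 11 of 47 without the class II list. These lists, like the 10 genes, are described by counts and medians only.

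Of 13 tested other class I and class I-like heavy chains, 7 were called higher (53.8%) and 4 lower (30.8%), beside 31.5% and 31.3% of all tested genes, with a median log2 fold change of 0.45. H2-Q4 was at 8.06, 8.29 and 8.80 FPKM in LLC alone and at 27.0, 29.2 and 28.9 in LLC with BMSCs (edgeR log2 fold change 1.76, SE 0.06, adjusted p = 6.29e-07). H2-T23, the Qa-1 molecule that natural killer cells read, went from 4.12, 4.12 and 5.13 FPKM to 13.5, 16.3 and 15.7 (edgeR log2 fold change 1.74, SE 0.12, adjusted p = 1.34e-05). H2-T10 and H2-T22, ligands of some gamma-delta T cells, rose with log2 fold changes of 1.38 and 1.15. H2-Q8 was also called, from under 5 counts in each LLC alone library. H2-T9 was called higher at 0.45, with 4 of 18 other settings losing the call, 3 of them by leaving out LLC alone replicate 1 or LLC with BMSCs replicate 1 or 2 (edgeR adjusted p = 0.115, 0.135 and 0.0624). H2-Q7 (edgeR adjusted p = 0.0688) and H2-T24, at 1.54, 1.51 and 0.49 FPKM against 1.48, 1.31 and 1.57, were not called. Among the distant relatives, Mr1, which presents microbial vitamin metabolites, fell by 0.41 on the log2 scale, Fcgrt, the neonatal Fc receptor, fell by 0.37, and Hfe, a regulator of iron uptake, fell by 0.61. H2-M3, which presents formylated peptides, fell by 0.39 and Cd1d1, which presents lipids, rose by 0.30, and each of these lost its call in 7 or 8 of 18 other settings, among them leaving out LLC alone replicate 2 (edgeR adjusted p = 0.0568 and 0.0644). H2-M3 also lost it without LLC alone replicate 3 or LLC with BMSCs replicate 1 or 3 (0.0562 to 0.0739 by edgeR), and Cd1d1 without LLC with BMSCs replicate 2 or 3 (0.0940 and 0.0703 by edgeR). The call of Fcgrt was lost without LLC with BMSCs replicate 1 or 3 (edgeR adjusted p = 0.0554 and 0.0613). Most H2-Q and H2-T counts were fractional, and reads may be divided among these genes.

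Of 8 tested genes for peptide loading and trimming in the endoplasmic reticulum, 2 were called higher (25%) and 4 lower (50%). Over all tested genes these shares were 31.5% and 31.3%, and shares of only 8 genes are coarse. These 8 genes had a median log2 fold change of -0.08. Erap1, the aminopeptidase that trims peptides for class I, went from 6.93, 6.70 and 6.03 FPKM to 18.9, 20.4 and 20.6 (edgeR log2 fold change 1.59, SE 0.07, adjusted p = 1.94e-06). Tapbpl, the tapasin relative that edits peptides, rose from 2.07, 2.01 and 2.28 FPKM to 3.35, 4.09 and 3.96 (edgeR log2 fold change 0.82, SE 0.11, adjusted p = 0.000414). Among chaperones that serve many proteins, Calr fell by 0.26 and Pdia3 fell by 0.24 on the log2 scale, both losing the call with the close libraries summed (edgeR adjusted p = 0.0691 and 0.0764). Canx was not called, at 139, 139 and 123 FPKM against 135, 147 and 148 (edgeR log2 fold change 0.08, SE 0.07, adjusted p = 0.348). The other called genes of the list were Hspa5, with a log2 fold change of -1.16, and Bcap31, with -0.46.

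Among 8 proteasome partners, 3 were called higher (37.5%) and 1 lower (12.5%), beside 31.5% and 31.3% of all tested genes. Psme1 and Psme2, the subunits of the PA28 cap that joins the immunoproteasome, rose with log2 fold changes of 0.92 (SE 0.06) and 0.97 (SE 0.10, edgeR adjusted p = 1.17e-05 and 0.000103). Psme1 stood at 30.7, 30.3 and 33.03 FPKM in LLC alone and at 59.6, 58.7 and 61.7 in LLC with BMSCs. The assembly factor Pomp was not called (edgeR log2 fold change -0.02, SE 0.09, adjusted p = 0.842). Of 7 cytosolic peptidases, which trim or destroy peptides before transport, 5 were called higher (71.4%) and 1 lower (14.3%), with a median log2 fold change of 0.35.

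Of 11 regulators of class I genes, 7 were called higher (63.6%) and 1 lower (9.09%), beside 31.5% and 31.3% of all tested genes (median log2 fold change 0.27). Irf1, the interferon-induced factor that binds the ISRE, was at 7.57, 8.18 and 7.63 FPKM in LLC alone and at 46.1, 48.2 and 47.7 in LLC with BMSCs. No library of a group came near the other group, with a log2 fold change of 2.58 (SE 0.06, edgeR adjusted p = 1.02e-07). Irf2, which binds the same element, was not called, at 10.8, 10.8 and 10.1 FPKM against 13.4, 11.01 and 11.6 (edgeR log2 fold change 0.16, SE 0.08, adjusted p = 0.126), although it was called with the length trend removed (0.21, edgeR adjusted p = 0.0450). Rfx5, of the RFX complex through which Nlrc5 acts, rose from 6.52, 6.54 and 6.06 FPKM to 10.6, 10.5 and 10.4 (edgeR log2 fold change 0.62, SE 0.06, adjusted p = 6.10e-05). Nfkb1, a subunit of the factor that binds kappaB, was called with a log2 fold change of 1.13, and Nfyc, of the complex that binds CCAAT, with -0.66.

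**Figure D4:**
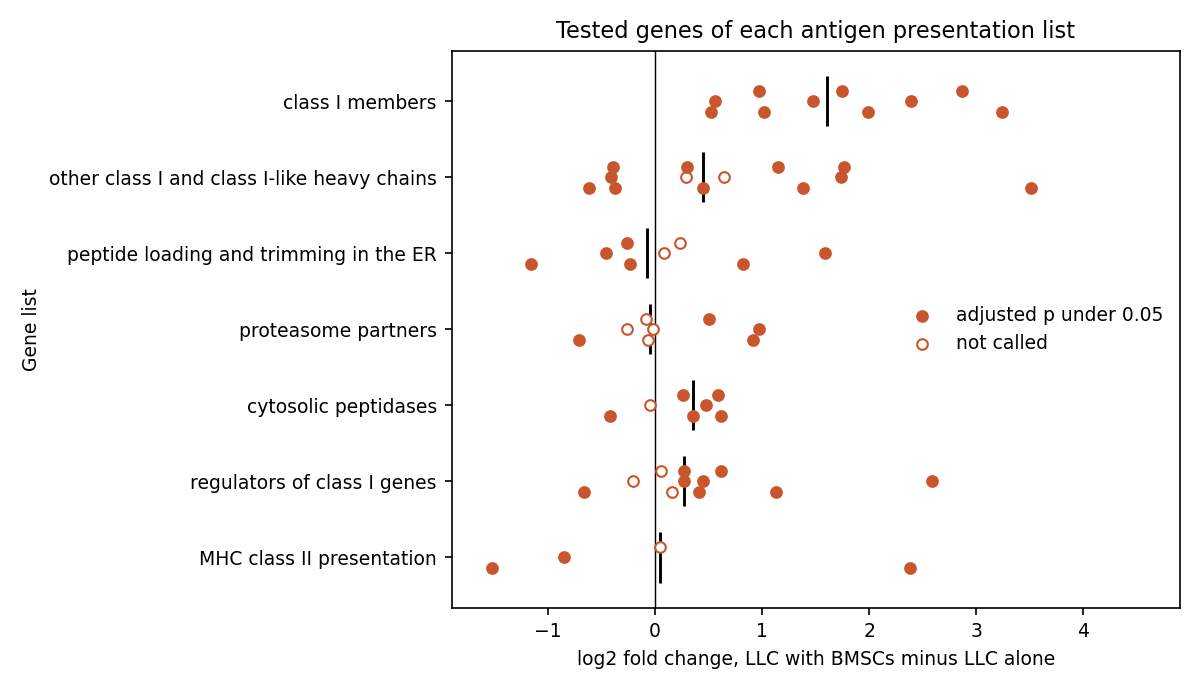
Log2 fold change from edgeR of the tested genes in the class I list and in 6 other antigen presentation lists, filled where the adjusted p was under 0.05, with a black line at each list's median over its tested genes. H2-Aa counts in its list's median but is not drawn, since its LLC alone libraries held at most 3 counts. The class I genes have the highest median, at 1.61, beside -0.08 to 0.45 in the other lists. All lists were chosen with earlier results of these data known.

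Of 10 genes of MHC class II presentation, which serves CD4 T cells, 5 were tested. Of these 2 were called higher and 2 lower (40% each), beside 31.5% and 31.3% of all tested genes. Ciita, the class II counterpart of Nlrc5, was at 0.08 FPKM or less in every library and was not tested. Cd74, the invariant chain, fell from 4.75, 4.27 and 5.78 FPKM to 3.10, 2.54 and 2.76 (edgeR log2 fold change -0.85, SE 0.14, adjusted p = 0.00139). The class II genes that flank Psmb9, Tap1, Psmb8 and Tap2 on chromosome 17 were mixed. H2-DMb1, next to Psmb9, was not called at 12.9, 12.9 and 16.1 FPKM against 14.1, 15.9 and 14.1. H2-DMa fell by 1.52 on the log2 scale, and H2-Ob, next to Tap2, was listed at 0.01 FPKM at most. H2-Ab1 and H2-Aa, further on, were called higher but stayed at or under 0.51 FPKM. These neighbours were looked up after the values were seen.

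The genes outside the list with the pattern closest to the median of the 10 were Adm, Egln3, 4930447F24Rik, Lgals9 and Mnda. The measure was the Euclidean distance between log2 CPM values centred on the mean of the 6 libraries, and it was 0.14 to 0.16 for these genes. Among the 10 genes themselves the distances to their own median ran from 0.19 (H2-K1) and 0.25 (Psmb10) to 1.91 (Psmb9), because the genes share a direction and differ in size. Lgals9, which encodes galectin 9, went from a mean of 8.66 FPKM to 26.3, and Adm, the hormone adrenomedullin, from 14.8 to 45.1. Egln3 is an oxygen-sensing hydroxylase.

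Cell type markers changed along with the group, and the class I genes are expressed by nearly all nucleated cells. In bulk RNA, more cells of a type and more RNA per cell cannot be told apart. All 8 tested neutrophil genes were called higher, where 31.5% of all tested genes were called higher and 31.3% lower. The summed level of the list went from 0.29 to 0.64 FPKM in LLC alone to 44.0 to 52.9 in LLC with BMSCs, most of it S100a8 and S100a9. Among the 16 leukocyte and macrophage genes 12 were tested, of which 10 were higher (83.3%) and 1 lower (8.33%). The summed level of this list was 17.3 to 20.8 FPKM against 28.5 to 29. Adgre1 was at 0 in all LLC alone libraries and at 0.42 to 0.56 FPKM in LLC with BMSCs. Ptprc (CD45) went from 0.01, 0.05 and 0.03 FPKM to 0.41, 0.49 and 0.45 (edgeR log2 fold change 3.90, SE 0.30, adjusted p = 2.38e-05). Fcer1g went from 0.11, 0.20 and 0.18 FPKM to 4.43, 3.87 and 4.31, and Tyrobp from 0.04, 0 and 0 to 1.65, 1.95 and 1.87. The median log2 fold change of the 12 tested genes was 3.45, while Cd14, not called, held 35.2% of the summed level in LLC with BMSCs. The 10 tested mesenchymal stromal genes were all higher, and their summed level went from 75.5 to 88.8 FPKM to 162 to 173, of which Col3a1 held 60.1%. The 10 class I genes together gained 529 FPKM, beside 47.6 for the neutrophil list, 9.95 for the leukocyte and macrophage list and 82.4 for the mesenchymal stromal list. The 9.95 is a net value, in which Cd68 fell. Marker levels do not measure how much class I RNA the same cells carry, so these gains do not size their part. The 12 T, NK and B cell genes in the files summed to under 0.5 FPKM in every library, with Nkg7 and Gzmb at 0 in LLC alone, and the 8 endothelial genes also did. The dendritic cell genes summed to 3.07 to 3.45 FPKM and 4.15 to 4.31, and the erythroid genes to 2.41 to 3.27 and 7.88 to 9.62. The part of these markers in the class I result was not tested. Of the epithelial carcinoma genes only Krt8 was abundant, at 90.3 to 102 FPKM in LLC alone and 108 to 113 in LLC with BMSCs, while Epcam, Cdh1, Krt7 and Krt19 stayed under 0.1 FPKM and Krt18 under 0.7. The labelled LLC identity therefore rests on the fluorescent gate, and the labels name mesenchymal stem cells beside LLC cells as the source of the LLC with BMSCs libraries.

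**Figure D5:**
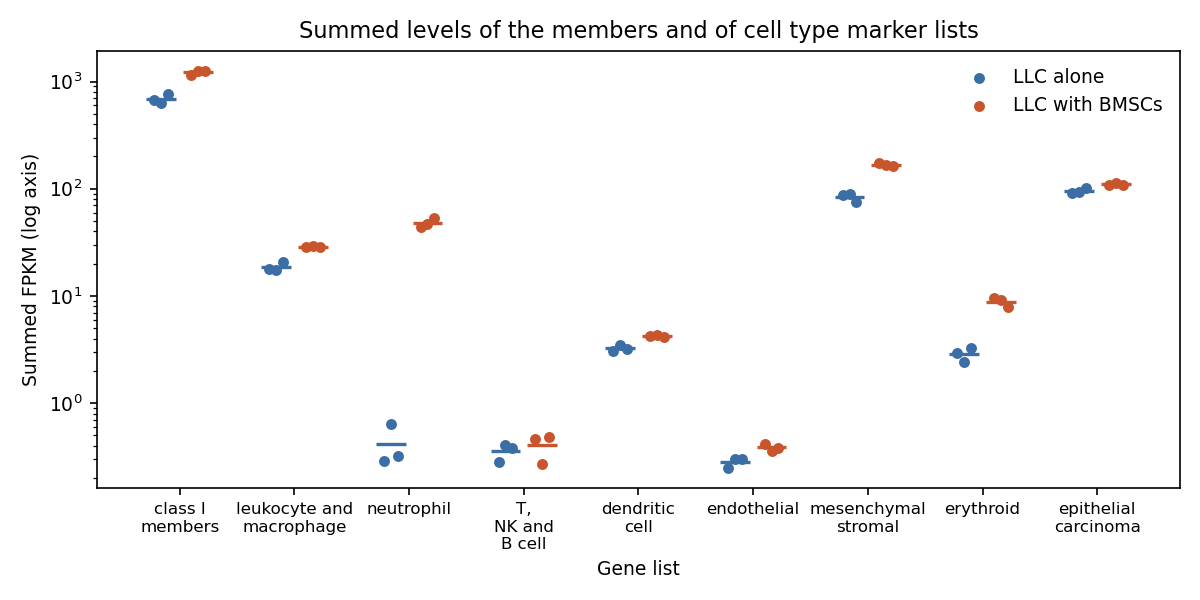
Summed FPKM (log axis) of the 10 class I genes and of 8 lists of cell type markers in each of the 6 libraries, with lines at the group means. The neutrophil list differs most between the groups as a ratio, though not in FPKM gained, at 0.29 to 0.64 against 44.0 to 52.9, and the class I genes, at 635 to 771 against 1145 to 1265, lie above every marker list in both groups. Marker sums do not measure the class I RNA of the same cells.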

How the data were processed

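Per the labels, RNA came from LLC-RFP cells sorted from tumours of LLC alone or LLC with BMSCs, 3 libraries each, and the study's methods name oligo-dT enrichment and paired-end sequencing on the BGISEQ500, while the labels name Illumina protocols. The submitters' processing notes list HISAT, StringTie, Cufflinks, GATK and the build mm8. Which program counted, and whether strand was used, are not given in the sources used here. The deposited files give, for genes and for transcripts, expected counts, which are estimated counts that need not be whole and that the authors had not normalized. The authors also deposited FPKM, scaled to transcript length and library total. Genes missing from a library's file were taken as 0, and 1151 genes without a symbol stayed in the tests. The series table of FPKM equalled the single-library files and was not used.

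Estimated counts were rounded and tested with edgeR 4.0.16 in R 4.3.3 (TMM, filterByExpr, quasi-likelihood test on group, Benjamini-Hochberg over 13353 genes, threshold 0.05). Standard errors are the log2 fold change over the root of the test statistic. Levels are FPKM. The fit was tested on simulated data with known changes. The 10 genes, the other lists and the marker lists were chosen with earlier results of these data known. The genes named singly are the 10, 15 further pathway genes, class I-like heavy chains of at least 1 FPKM in a group and the 5 closest patterns. Members of a list outside this rule were named after their values were seen. In the pathway lists these were Hspa5, Bcap31, Pomp, Nfkb1, Nfyc, H2-Q7, H2-Q8 and class II genes. Among markers they were Adgre1, Ptprc, Cd14, Cd68, Fcer1g, Tyrobp, Col1a1, Dcn, Eng, Epcam, Cdh1 and the keratins. Positions and transcripts are from GENCODE vM21, promoter windows from RefSeq (GRCm38.p6), and identities from global alignment in Biopython 1.88. With 3 libraries a group, an exact permutation test gives no two-sided p under 0.1. The alternatives were DESeq2 1.42.0, limma 3.58.1 on log2(FPKM + 1) and log2(FPKM + 0.1), other scalings and filters, a replicate block, each library left out, the close libraries of each group summed (LLC alone replicates 1 and 2, LLC with BMSCs replicates 2 and 3), and a length trend removed. One promoter window is not reported here.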

Additional observations from a re-analysis of the deposited data

How the results depend on the processing

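All 10 class I genes kept their call and their direction in each of the 18 alternatives, and between 6 and 8 of them reached a log2 fold change of 1. The highest adjusted p of any of them was 0.0320, for B2m. Over all tested genes the calls ranged from 3361 to 4746 higher and from 3305 to 4586 lower. Of the other named genes, 424 of 450 values kept call and direction, 23 lost the call, 2 gained it, and Psmb7 turned from -0.08 to 0.22 with the length trend removed. The same replicate numbers in both groups were not treated as pairs. Same-numbered libraries deviated from their group means with correlations of 0.08, -0.11 and 0.06. With 3 libraries a group these correlations cannot show whether the numbers mark pairs. With the replicate number as a block (replicate block), 10 class I genes were called, 4161 genes were higher and 4058 lower, and of the named genes Cd1d1 alone lost its call (adjusted p = 0.0513). Under the alternatives tried for them, all 6 log2 ratios moved by less than the root mean square of the SDs within the groups, though Psmb8 over Psmb5 (from 3.57 to 3.47 without LLC alone replicate 3) and Psmb9 over Psmb6 (from 3.50 to 3.37 with 0.1 FPKM added) moved by more than the smaller SD. With transcript shares taken from estimated counts in place of FPKM, the difference for NM_009318 of Tapbp moved from 0.24 to 3.80 percentage points. The depth limits Psmb9, at under 1 FPKM in LLC alone, and the lowest H2-Q and class II genes.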
